A study of Rattus norvegicus with 15 samples.

Results

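Integrin subunit genes were followed through the culture of purified rat alveolar epithelial type 2 (AT2) cells, which differentiate toward an alveolar type 1 (AT1) like phenotype. The 9 genes chosen encode some of the subunits that bind fibronectin, laminin or collagen or that activate latent transforming growth factor beta (TGFB). Others of these kinds, such as *Itga7* and *Itga11*, which fell from D0 to D2, are given apart below. Among the 9 chosen, 6 had a probe with their name on the Illumina RatRef-12 array, 1 probe each, among 13337 named genes: *Itga1*, *Itga5*, *Itgb1*, *Itgb4*, *Itgb5* and *Itgb6*. *Itga3*, *Itga6* and *Itgav* were not analysed here, so neither the 2 laminin-binding alpha subunits among the 9 nor the alpha partner of *Itgb5* and *Itgb6* has a value. RNA was taken from AT2 cells of male rats at isolation (D0) and after 2, 4, 6 and 8 days in culture (D2, D4, D6 and D8), with no agent added at any day, and 3 arrays were hybridized per day, 15 in all. D0 is the only baseline, and the AT1-like state is defined by culture, not by AT1 cells taken from lung.

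Integrins are surface receptors made of 1 alpha and 1 beta chain that couple the extracellular matrix to the actin cytoskeleton. The beta chain encoded by *Itgb1* is shared by many of them, among which the pair with the product of *Itga5* is the classical fibronectin receptor and the pair with that of *Itga1* binds collagen. The *Itgb4* product pairs with that of *Itga6* in hemidesmosomes, where it holds basal keratin filaments to laminin. The products of *Itgb5* and *Itgb6* pair with that of *Itgav*, and the *Itgb6* receptor of lung epithelium is known for releasing active TGFB from its latent complex.

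Signals were put on a common log2 scale by variance stabilization (VSN), and differences between days are given on that scale. On the log2 raw signal, before VSN, same-day arrays correlated at r = 0.974 to 0.995 over all probes (across probes, which are not independent replicates). The range was 0.990 to 0.995 on the same slide and 0.974 to 0.986 on different slides. Replicates 1 and 2 of every day lay on slide 1, the third array of D2 and D4 on slide 2, and the third array of D0, D6 and D8 on slide 3. Between 7615 and 9787 of 22523 probes were detected per array (detection p under 0.01). Of 10 AT2 markers with a probe, 10 were detected on every D0 array and 9 fell from D0 to D8, while 9 of 13 AT1 markers rose. Other lineages also moved: the summed raw signal of 5 airway markers was 39369 to 47074 at D0 and 2660 to 5990 at D8, that of 3 erythroid markers 32004 to 49768 and 477 to 1170, and that of 10 fibroblast markers 3556 to 4857 and 9891 to 54326. In such bulk RNA, fewer cells of a type and less RNA per cell cannot be told apart.

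From D0 to D8, 4 of the 6 measured subunits rose and none fell. They were *Itgb5*, *Itgb6* and *Itgb1*, with log2 differences from 1.09 to 1.98, and *Itga1*, which was not detected at D0 and whose rise has only a lower bound. Over all probes 18% passed the test in either direction and 9.91% rose (limma, Benjamini-Hochberg adjusted p at most 0.05). Among probes detected on at least 3 arrays, as all 6 subunits were, 20.9% rose. *Itga1* met that filter only through arrays of D4, D6 and D8, so its place among the 4 is not comparable with that share. The arrays of the 2 days did not overlap, with D8 the higher, for 5 of the 6, against 15.6% of all probes. The median difference of the 6 subunits was 1.36, or 1.08 with *Itga1* at its lower bound, against -0.02 for all probes. From D0 to D2, 4 of 6 rose as well, where 18.6% of probes passed and 10.3% rose (21.7% of those detected on at least 3 arrays). These were *Itgb5*, *Itgb4*, *Itgb6* and *Itgb1*, and for all 6 subunits every D2 array lay above every D0 array, against 15.8% of probes. For *Itga1*, detected on no array of either day, that separation is between signals below detection and shows no rise. At D4 and at D6, 3 of 6 rose over D0, *Itgb5*, *Itgb6* and *Itgb1*. With slide group as a term *Itga1* passed as well at both days (limma adjusted p = 0.0241 at D4 and 0.0422 at D6). No D0 array detected it and its lower bound was 1-fold at both days, so no size of rise is shown. In the fit without that term, 19% of all probes passed at D4 and 18.7% at D6, with 10.9% and 10.7% higher. At each day 5 of 6 subunits lay above D0 without overlap, *Itga1* among them, against 17.2% and 16% of probes.

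**Figure D1:**
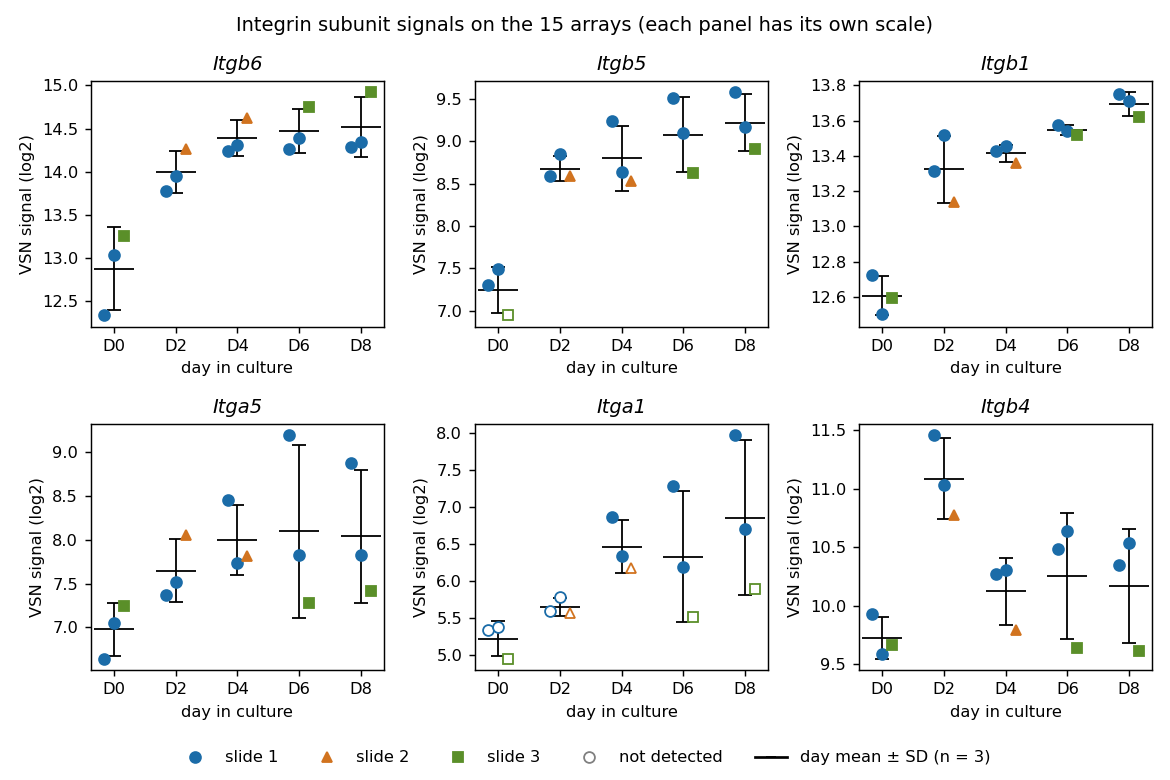
VSN signal (log2, y axis) of the 6 integrin subunits against day in culture (x axis) on 15 arrays, with symbols for the slide, open symbols where the probe was not detected and black bars for the day mean ± SD (n = 3). *Itgb6*, *Itgb5* and *Itgb1* lie higher at D2 than at D0 on every array and stay there, *Itgb4* peaks at D2, and *Itga1* and *Itga5* spread widely at D6 and D8.

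Of the TGFB-activating subunits, *Itgb6* had signals of 12.34, 13.03 and 13.26 at D0, of 13.78, 13.96 and 14.26 at D2 and of 14.24, 14.31 and 14.63 at D4. Those at D6 were 14.27, 14.39 and 14.75, and those at D8 were 14.29, 14.34 and 14.92. Every array from D2 on lay above every D0 array, and the D4, D6 and D8 arrays overlapped. The D2 mean exceeded the D0 mean by 1.12 (SE 0.27, n = 3 per day, limma adjusted p = 0.00841), or 2.17-fold. The D8 mean exceeded it by 1.64 (SE 0.27, limma adjusted p = 0.000492), or 3.12-fold. The third array of each day was the highest of its day, by 0.35 to 0.61 over the mean of the slide 1 arrays. The difference from D0 to D8 was 1.63 on slide 1 and 1.66 on slide 3, the slides that held both days.

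*Itgb5*, whose product also pairs with that of *Itgav* and binds vitronectin, had the largest estimated rise of the 6. Its signals were 7.30, 7.49 and 6.94 at D0, 8.59, 8.85 and 8.59 at D2 and 9.24, 8.64 and 8.53 at D4, and the third D0 array was below detection. They were 9.51, 9.10 and 8.63 at D6 and 9.58, 9.17 and 8.91 at D8. No later array overlapped D0. The rise was 1.43 at D2 (SE 0.28, limma adjusted p = 0.0017) and 1.98 at D8 (SE 0.28, limma adjusted p = 0.000115), the latter 3.94-fold. Within slides the D8 rise was 1.98 on slide 1 and 1.97 on slide 3.

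*Itgb1*, the common beta chain, differed little between the arrays of a day. It read 12.72, 12.50 and 12.59 at D0, 13.31, 13.52 and 13.14 at D2, and 13.42, 13.46 and 13.36 at D4. It read 13.58, 13.54 and 13.52 at D6 and 13.75, 13.71 and 13.62 at D8, so that the lowest D8 array lay above every array of an earlier day. The SD within a day was 0.19 or less. The rise over D0 was 0.72 at D2 (SE 0.17, limma adjusted p = 0.0068) and 1.09 at D8 (SE 0.17, limma adjusted p = 0.000281), or 1.64-fold and 2.12-fold. The further difference of 0.37 between D2 and D8 did not pass (limma adjusted p = 0.394). Within slides the D8 rise was 1.12 on slide 1 and 1.03 on slide 3.

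The promoters of these 3 subunits are shown because the 3 rose together at D2 and stayed up. Each is the 250 bases before the start of the gene in RefSeq (GRCr8), 5′ to 3′ on the strand of the gene. Capitals mark matches, on either strand, to a TEAD site (GGAATG), a SMAD box (CAGAC) or a GC box (GGGCGG); an AP-1 site (TGANTCA) was searched and matched in none of the 3.
Itgb1, chr19:73602027-73602276, plus strand: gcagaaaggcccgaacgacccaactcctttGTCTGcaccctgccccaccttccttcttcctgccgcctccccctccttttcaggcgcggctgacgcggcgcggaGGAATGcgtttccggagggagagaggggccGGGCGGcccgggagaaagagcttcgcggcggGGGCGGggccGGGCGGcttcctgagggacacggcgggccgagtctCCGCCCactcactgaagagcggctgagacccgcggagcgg
Itgb5, chr11:80449374-80449623, minus strand: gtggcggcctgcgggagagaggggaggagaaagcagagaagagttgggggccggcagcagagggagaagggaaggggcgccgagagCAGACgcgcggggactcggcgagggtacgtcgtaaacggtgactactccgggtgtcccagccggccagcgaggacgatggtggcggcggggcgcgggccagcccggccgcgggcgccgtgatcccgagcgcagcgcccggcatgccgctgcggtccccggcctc
Itgb6, chr3:65530334-65530583, minus strand: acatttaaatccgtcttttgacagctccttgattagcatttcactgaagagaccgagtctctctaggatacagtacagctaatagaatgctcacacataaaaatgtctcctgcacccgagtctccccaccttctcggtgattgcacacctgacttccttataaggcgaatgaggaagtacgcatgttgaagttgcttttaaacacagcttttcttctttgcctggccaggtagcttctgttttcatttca
The *Itgb1* window held 4 GC boxes, 1 TEAD site 146 bases before the start and 1 SMAD box. The *Itgb5* window held a single SMAD box, and the *Itgb6* window held none of the 4 motifs. Among 33469 rat promoter windows of this length, 30.5% held a GC box, 12.1% a TEAD site, 42.9% a SMAD box and 6.34% an AP-1 site. The *Itgb1* and *Itgb5* windows were rich in G and C, at 71.2% and 74.4% of bases, above 93.1% and 96.1% of all windows, whereas the *Itgb6* window was at 43.2%, above 21.5% of them. A match to these letters is a description and not evidence of binding. The *Itga5* and *Itga1* windows held 1 GC box and 1 SMAD box respectively.

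*Itga5*, the fibronectin-receptor alpha chain, did not pass in any comparison of days. Its signals were 6.64, 7.04 and 7.24 at D0 and 7.37, 7.52 and 8.06 at D2. They were 8.46, 7.73 and 7.81 at D4, 9.20, 7.82 and 7.27 at D6 and 8.88, 7.82 and 7.41 at D8. All later arrays lay above all D0 arrays, but the D6 and D8 arrays spanned 7.27 to 9.20. The D8 mean was 1.07 above D0 (SE 0.46, limma adjusted p = 0.141). The 2 slides gave different sizes, 1.51 on slide 1 and 0.17 on slide 3, and with slide group as a term the adjusted p was 0.103. In slide 1 arrays alone, 2 per day, the rise passed (limma adjusted p = 0.0441).

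*Itga1*, the collagen-receptor alpha chain, was detected on no array of D0 or D2 and on 2 of 3 arrays at each of D4, D6 and D8. Its signals were 5.33, 5.38 and 4.95 at D0, 5.60, 5.79 and 5.57 at D2, and 6.86, 6.34 and 6.18 at D4. They were 7.28, 6.19 and 5.52 at D6 and 7.97, 6.70 and 5.90 at D8. The D8 arrays did not overlap D0, with a fitted difference of 1.63 (SE 0.47, limma adjusted p = 0.0251). Since no D0 array detected the probe, that difference and those within slides do not measure the size of the rise, which is at least 1.12-fold, the D8 mean over the lowest signal among detected probes of the D0 arrays. The call was lost without D0 replicate 1 (limma adjusted p = 0.0547), D0 replicate 3 (0.0836), D8 replicate 1 (0.122) or D8 replicate 2 (0.0538), and in the fit to D0 and D8 alone (adjusted p = 0.0742). Within slides the fitted difference was 1.98 on slide 1 and 0.94 on slide 3, and with slide group as a term the adjusted p was 0.00474.

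For both alpha subunits and for *Itgb5*, replicate 1 was the highest array of D4, D6 and D8, and for *Itgb5* replicate 3 was the lowest of each of these days. The same 3 arrays held the highest summed raw signal of the 10 fibroblast markers, at 37353, 52625 and 54326, against 10561, 18565 and 27306 in replicate 2 and 7770, 8187 and 9891 in replicate 3 of those days. At D8, 9 of the 10 markers were detected in replicate 1, 6 in replicate 2 and 5 in replicate 3. The 4 smooth muscle markers summed to 5277, 2269 and 832 at D8. The 2 mesothelial markers, of which only *Msln* was detected, summed to 388 to 438 at D0 and in replicate order to 2371, 1547 and 1064 at D4, 3107, 2240 and 1022 at D6 and 3447, 2095 and 875 at D8. Of the fibroblast markers 2 of 10 passed from D0 to D8, both collagen I chains. Without replicate 1 of D4, D6 and D8, a choice made after seeing the data, the difference from D0 to D8 was 0.64 for *Itga5* (limma adjusted p = 0.247), and *Itgb6* rose by 1.75, *Itgb5* by 1.80 and *Itgb1* by 1.06. *Itga1* passed in that fit (limma adjusted p = 0.0423), but the mean of its remaining D8 arrays lay below the lowest detected signal of the D0 arrays, so no size is given. The part of fibroblast, smooth muscle or mesothelial RNA in these 3 signals was not tested.

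**Figure D2:**
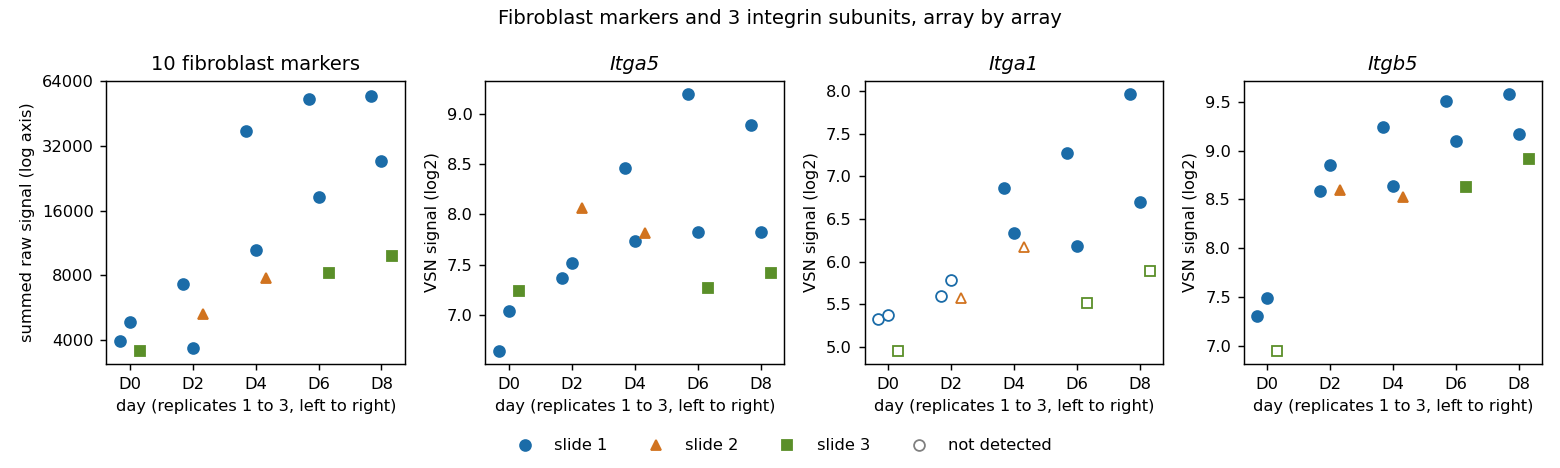
The left panel gives the summed raw signal of 10 fibroblast markers (y axis, log scale) and the other panels the VSN signal (log2) of *Itga5*, *Itga1* and *Itgb5*, by day and array on the x axis, with symbols for the slide and open symbols where an integrin probe was not detected. Replicate 1 is the highest array of D4, D6 and D8 in all 4 panels.

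*Itgb4*, the hemidesmosomal beta chain, had its highest mean at D2. Its signals were 9.93, 9.59 and 9.66 at D0 and 11.46, 11.03 and 10.77 at D2, with no overlap, a rise of 1.36 (SE 0.31, limma adjusted p = 0.00585), or 2.57-fold. They were 10.27, 10.30 and 9.79 at D4, 10.49, 10.64 and 9.64 at D6 and 10.35, 10.53 and 9.61 at D8, all below every D2 array, and the third array of D4, D6 and D8 each lay within the D0 range. The D4 mean was 0.96 below the D2 mean (SE 0.31), which did not pass over all probes (limma adjusted p = 0.204, unadjusted p = 0.00767). The difference was -0.96 on slide 1 and -0.98 on slide 2, and it passed with slide group as a term (limma adjusted p = 0.015), with slide as a random block (adjusted p = 0.0227) and under each of the 3 other normalizations (adjusted p = 0.0182 to 0.0327). The D8 mean was 0.44 above D0 (95% confidence interval -0.22 to 1.10, limma adjusted p = 0.427), and the value was 0.68 on slide 1, where it passed when fitted alone (adjusted p = 0.0469), and -0.05 on slide 3.

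After D2 the main fit, to VSN values without a slide term, called no subunit in any comparison. Other normalizations called some, as given under the dependence on processing. Between D2 and D4, 0 of 6 passed, where 1.39% of all probes did, 2 of 6 had days that did not overlap, against 18% of probes, and 1 of 6 had an unadjusted p under 0.05. Between D2 and D8 it was 0 of 6 against 2.58%, although 5 of 6 did not overlap, against 18.5% of probes, with 3 of 6 at an unadjusted p under 0.05. Between D2 and D6, 0 of 6 passed against 2.22%, with 1 of 6 at an unadjusted p under 0.05, *Itgb4*, which passed with slide group as a term (limma adjusted p = 0.0286, a difference of -0.83). From D4 to D6, D6 to D8 and D4 to D8, 0 of 6 subunits and 0% of probes passed, with 0 of 6 subunits at an unadjusted p under 0.05. In the order of the day means of each subunit, 3 of 24 neighbouring pairs of days differed, namely D0 and D2 for *Itgb1*, *Itgb5* and *Itgb6*. The count was 1 when only the arrays of the 2 days compared entered each fit. All comparisons with D0 share its 3 arrays.

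**Figure D3:**
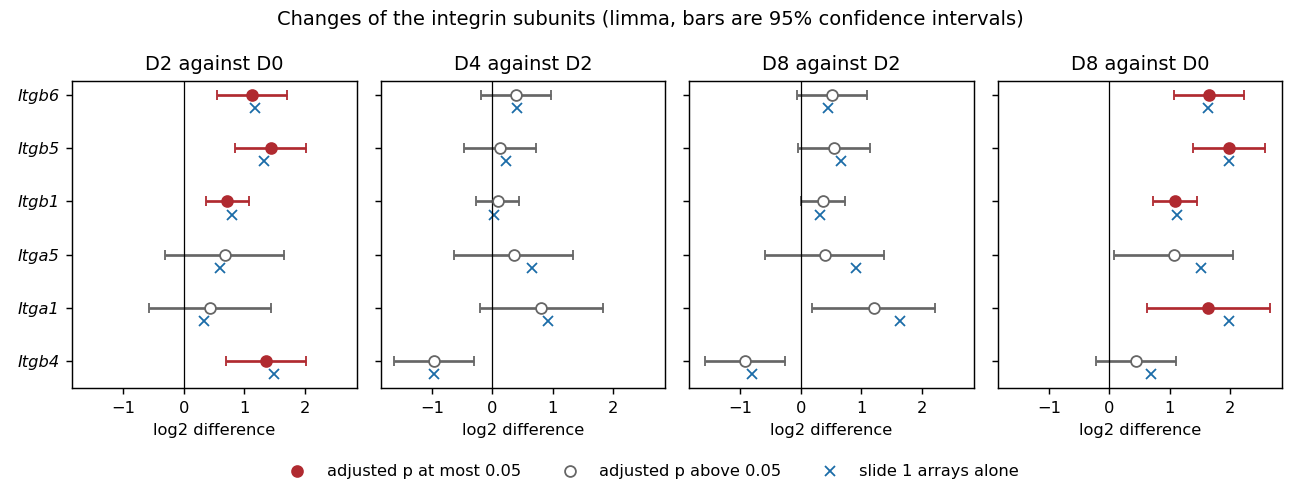
Difference between days (x axis, log2) for each of the 6 subunits (rows) in 4 comparisons, with 95% confidence intervals from limma, filled where the adjusted p was at most 0.05, and crosses for slide 1 arrays alone. The rises sit in the panels against D0, *Itgb4* is the only subunit with negative estimates in the panels against D2, and *Itga1* was not detected at D0 or D2, so its position does not measure a size.

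Genes whose signals followed each subunit most closely were taken from 6961 named probes outside the integrin family, detected on all 3 arrays of a day or more. The measure was the least root mean square difference of mean-centred signals over the 15 arrays. *Src* was detected on 0 of 3 D0 arrays and *Itga1* on no D0 or D2 array, so their matches include signals below detection. *Itgb6* was nearest to *Src*, a kinase of focal adhesions (0.180), and *Itgb1* to the AT1 marker *Pdpn* (0.109), where the median over the 6961 probes was 0.738 and 0.497. *Itgb5* was nearest to *Chpf2*, a chondroitin-synthesis gene (0.142), and *Itgb4* to *RT1-M10-1*, a class I histocompatibility gene (0.196). *Itga5* was nearest to *Reck* (0.284), an inhibitor of matrix metalloproteinases, and *Itga1* to *Ecm1* (0.353), a secreted matrix protein that was also the second nearest to *Itga5*. The second nearest were *Mppe1* for *Itgb6*, *Nsf* for *Itgb1*, *Akip1* for *Itgb5*, *Spdl1* for *Itgb4* and *Tnfrsf11b* for *Itga1*.

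Among the ligands of these receptors, 3 of 6 fibronectin and other RGD ligands rose from D0 to D8 and none fell, with a median of 2.16, or 1.55 with genes below detection at their bound. *Fn1*, fibronectin itself, rose by 6.41 (SE 0.27, limma adjusted p = 1.56e-09), *Spp1*, osteopontin, by 6.24 and *Mfge8*, a bridge to apoptotic cells, by 1.81. At D2 the rise of *Fn1* over D0 was already 5.96. *Vtn*, the vitronectin gene, was detected on no array. Of 5 laminin chains (median 0.41) 2 rose, *Lamc1* by 2.75 and *Lamb3*, a chain of the laminin to which the *Itgb4* receptor binds, by 2.05. Only 3 of the 5 were detected on any array, and *Lama1* and *Lamc3* on none. Of 7 collagen chains (median 3.06) 5 passed as higher. *Col4a3* of the alveolar basement membrane rose by at least 16.9-fold, *Col1a1* by 4.59, *Col1a2* by 3.06 and *Col4a1* by 1.26. *Col4a5* passed too but was detected on no array of any day, so it shows no rise. The 2 collagen I chains are themselves in the fibroblast list, and at D2 neither had passed.

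For the TGFB arm, the 7 genes were those of TGFB, of its latent complex and of homologues of that complex. Of these, 3 rose from D0 to D8 and none fell, with a median of 1.32, or 0.88 with genes below detection at their bound. *Tgfb2* rose by 3.54 and *Tgfb1* by 1.32, and *Ltbp2*, a latent TGFB binding protein homologue of the matrix, rose at least 54.9-fold from no detection at D0. *Ltbp1* and *Ltbp4* differed by -0.96 and 0.06 and did not pass. Of 3 TGFB-responsive genes with a probe (median 0.60), 2 rose, *Tgfbi* at least 17.6-fold and *Ccn2* by 0.60 (limma adjusted p = 0.0306), and *Smad7* differed by -0.08.

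Inside the cell, 10 of 21 adhesion adaptors and kinases rose from D0 to D8 and 1 fell, with a median of 0.59. The largest were *Tns1*, a tensin that binds integrin tails, at 2.00, *Fermt3*, the kindlin of blood cells, at 1.81, *Src* at least 2.12-fold up, and *Lims1* at 1.48. *Ilk*, the kinase-like partner of *Lims1* and *Parva*, rose by 1.32, and all 3 genes of that complex passed at both D2 and D8. *Crk*, an adaptor of focal adhesions, fell by 1.23. *Fermt2*, the kindlin of epithelium and mesenchyme, differed by 0.05. Of 6 hemidesmosome and tetraspanin genes (median 0.13), *Cd81* and *Cd151*, a tetraspanin partner of laminin-binding integrins, rose by 1.27 and 0.82, and *Cd82* fell by 0.67. Of the hemidesmosomal genes, *Plec* differed by -0.07 and *Col17a1* was detected on 2 D0 arrays and on no D8 array, and neither passed.

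Of the other integrin subunits, 11 of 17 had a named probe, and only 6 of these 11 were detected on any array. The rest, *Itgb8* among them, could show no change. From D0 to D8 there was 1 rise and 1 fall, with a median of -0.20, or 0 with genes below detection at their bound. *Itga7*, a laminin-receptor alpha chain known from muscle, fell by 4.24 (SE 0.29, limma adjusted p = 1.62e-07), from a mean of 10.66 ± 0.17 (SD, n = 3) at D0 to 6.42 ± 0.34 at D8, and the fall to D2 was 4.64. *Itga11*, a collagen-receptor alpha chain, went from 10.73 ± 0.10 at D0 to 7.79 ± 0.29 at D2, a fall of 2.94 (limma adjusted p = 8.88e-05), and stood at 9.96 ± 0.88 at D8, 2.18 above D2 (adjusted p = 0.0085). *Itgam*, an alpha chain of macrophages and granulocytes, rose at least 1.41-fold from no detection at D0. Of 12 macrophage and leukocyte markers, 3 rose and 1 fell from D0 to D8, and their part in the *Itgam* and *Fermt3* signals was not tested.

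**Figure D4:**
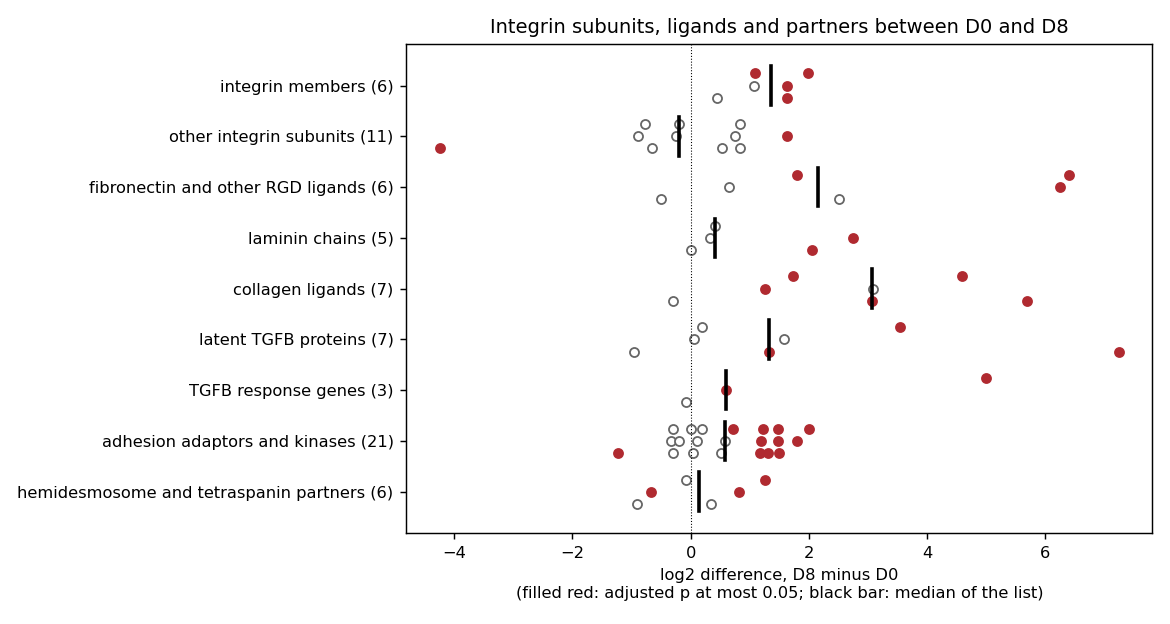
Difference between D8 and D0 (x axis, log2) of each gene in 9 lists (rows, number of genes with a probe in parentheses), filled where the adjusted p was at most 0.05, with a black bar at the median of the list. The integrin subunits studied have a median of 1.36, the collagen ligands one of 3.06 and the other integrin subunits one of -0.20. Of these other subunits, 6 of 11 were detected on any array.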

How the data were processed

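The authors made raw signals from array images with BeadStudio, and deposited these intensity values without normalization between arrays, each with a detection p-value. They also deposited log2 values normalized by VSN through LUMI (R 2.11.1, with limma for tests, per the labels and methods). Here VSN was refitted to the raw signals of all 15 arrays (trimming quantile 0.9, 7 rounds, 5 slices). limma 3.58.1 with statmod 1.5.0 in R 4.3.3 fitted 1 mean per day, and Benjamini-Hochberg adjustment ran over 22523 probes (threshold 0.05). Array number, 3 per day, limits the precision. VSN folds understate changes of dim probes. Folds against a day with no detection are lower bounds.

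Genes were named from the platform probe table, brought to RefSeq symbols, which gives 1 symbol for 13793 probes and none for 8730. The members and gene lists were chosen with earlier results of these data known. All members were named, up to 4 genes per list by size of change among those that passed (others were named after their values were seen), and the nearest 2 genes of each member. The 19 lists held 195 genes, 143 with a probe.

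The study used separate purifications, but the labels do not assign arrays to them, so p-values measure the spread between arrays, part of which may be technical. Replicate numbers follow accession order. The pipeline was tested on simulated data. Alternatives were other normalizations, filters, slide terms, array subsets, moderation and threshold.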

Additional observations from a re-analysis of the deposited data

How the results depend on the processing

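From D0 to D8, 3 or 4 of the 6 subunits rose under every alternative run except slide 1 alone, where 6 did. These included *Itga1*, detected on no D0 array, and the share of all probes in the slide 1 fit is not given here. From D0 to D2, 4 rose except with only the days compared, where 2 did (*Itgb1* adjusted p = 0.106, *Itgb6* 0.0505). Between D2 and D4, 1 subunit, *Itgb4*, passed under quantile normalization, neqc and the authors' values. It also passed with slide group as a term (slide as a term below) and with slide as a random block. Between D2 and D8, 1 passed under neqc, slide as a term and the random block, and 2 under quantile normalization and the authors' values. Pairs of neighbouring days that differed numbered 1 with only the days compared, against 3. The cause of these differences was not tested.

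Counts over all probes moved as follows. From D0 to D8 and from D0 to D2 (4058 and 4181), they were 2557 and 2738 with only the days compared and 2704 and 2724 at a threshold of 0.01. Between D2 and D4 (314) they were 720 under neqc, 897 under quantile normalization, 751 with the authors' values, 692 with dim probes filtered out, 922 with slide as a term, 886 with the random block, 532 on slide 1, 113 with only the days compared, 550 with trend and robust moderation, 96 at 0.01, 91 without the 3 arrays high in fibroblast markers and 108 to 219 with 1 array left out. Between D2 and D8 (581) they were, for the same settings, 1020, 1201, 1044, 1031, 1217 and 1025, then 192 with only the days compared, 227 at 0.01, 277 without the 3 arrays and 249 to 410 with 1 array left out. Between D4 and D8 (0) they were 2, 12, 11, 1, 49 and 13, then 4 on slide 1 and 3 with trend and robust moderation.

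Differences that had not passed changed sign in a few fits. Without the 3 arrays, *Itgb5* from D2 to D4 was -0.095 and *Itga5* was -0.15 from D4 to D8 and -0.030 from D2 to D8. *Itgb6* from D4 to D8 was -0.011 under neqc and -0.0088 under quantile normalization. With 1 array left out, ranges from D2 to D4 were -0.0030 to 0.19 for *Itgb1* and -0.095 to 0.26 for *Itgb5*, from D4 to D8 -0.16 to 0.87 for *Itga1*, -0.38 to 0.36 for *Itga5*, -0.14 to 0.32 for *Itgb4* and -0.077 to 0.24 for *Itgb6*, and from D2 to D8 -0.030 to 0.71 for *Itga5*.

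No paired analysis was possible because the labels give no replicate numbers. Averaging all probes of a gene was not run, since each subunit has 1 probe. Signal over background limits *Itga1* most.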
